A study of Homo sapiens with 21 samples.

Results

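The 10 hypoxia-inducible genes HIF1A, EPAS1, VEGFA, CA9, ADM, BNIP3, EGLN3, NDRG1, ANKRD37 and SLC2A1 were followed in HepG2 cells, an established line from a human liver tumour, whose RNA was sequenced after 6 h of caffeine. They were taken by symbol, each matched to its Ensembl identifier in the gene count table, and all 10 were found among the 37637 features listed and among the 17468 that passed the expression filter. Caffeine was given at 0.01, 0.1, 1, 10, 100 or 1000 µM, and the control group, labelled caffeine at 0 µM, had none. Each of the 7 groups had 3 libraries, described by the submitters as biological replicates, so there were 21 libraries. All groups, the control included, shared a wash and a change from serum-containing to serum-free DMEM at the start of exposure. No group was given low oxygen, and oxygen in the medium was not measured in the data used here.

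Cells sense oxygen through the hypoxia-inducible factors (HIFs). HIF-1α, encoded by HIF1A, and HIF-2α, encoded by EPAS1, are made continuously, hydroxylated by the prolyl hydroxylases EGLN1, EGLN2 and EGLN3 when oxygen is present, bound by the VHL ubiquitin ligase and degraded. When they escape this, they pair with ARNT and bind short DNA motifs near genes for glucose uptake, blood vessel growth, pH control and mitophagy. Since this control acts mainly on the proteins, which were not measured, transcript levels of HIF1A and EPAS1 are not a readout of HIF activity. In liver cells HIF-2α is also known as a regulator of erythropoietin and iron genes.

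The HIF core motif gives the sequence context of these genes. The letters ACGTG and GCGTG were searched on both strands in the 250 bases before each RefSeq start (GRCh38.p14). GCGTG is also the core of the motif of the aryl hydrocarbon receptor, and ACGTG is part of the E-box CACGTG. For 8 of the 10 genes a promoter was at hand (not for VEGFA and NDRG1), and 6 of these held either motif, where 43.21% of 35116 promoters of the same length did. ACGTG stood in CA9, BNIP3 and ANKRD37 (18.51% of all promoters), and GCGTG in HIF1A, EPAS1, ADM and BNIP3 (32.22% of all promoters). SLC2A1 and EGLN3 held neither in this window. The stretches with the matches are printed 5′ to 3′ on the strand of the gene, with matches to either strand in capitals, because they let genes that rose (HIF1A, EPAS1), fell (CA9, ADM, ANKRD37) or did not pass the test (BNIP3) at 1000 µM be compared:
HIF1A, chr14:61695296-61695325, plus strand: ttggctgagagcgGCGTGggctggggtggg
EPAS1, chr2:46297277-46297306, plus strand: ggggcctgccggcGCGTGcccgcccacaca
ADM, chr11:10304959-10304988, plus strand: agagcaggagcgcGCGTGgctgaggaaaga
CA9, chr9:35673897-35673926, plus strand: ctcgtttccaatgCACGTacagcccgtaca
ANKRD37, chr4:185396676-185396705, plus strand: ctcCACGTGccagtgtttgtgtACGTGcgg
BNIP3, chr10:131982014-131982173, minus strand: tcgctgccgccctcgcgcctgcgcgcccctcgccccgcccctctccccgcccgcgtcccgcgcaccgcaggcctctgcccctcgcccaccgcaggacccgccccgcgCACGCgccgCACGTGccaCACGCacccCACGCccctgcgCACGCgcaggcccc
The CA9 match lay 18 to 14 bases before the start. The BNIP3 stretch held 4 GCGTG matches, all on the opposite strand, and a CACGTG, which contains ACGTG on each strand. ANKRD37 held a CACGTG and a further ACGTG 143 to 139 bases before its start. The HIF1A, EPAS1 and BNIP3 stretches lay outside annotated exons, while the CA9, ADM and ANKRD37 stretches lay within exons of longer gene models of the same gene in GENCODE v29. A match is a string of letters and does not show that a HIF protein was bound there.

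Total counts per library ranged between 28043623 and 40827833. The 7 hepatocyte and HepG2 markers were abundant in every library (summed level 20778 to 26781 CPM, the count per library total scaled by TMM), as the label HepG2 asks. The defining endothelial and fibroblast markers in the table (CDH5, VWF, COL1A1, COL3A1 and DCN) and the blood marker PTPRC stayed under 10 counts in every library. The other blood marker in the table, the macrophage gene CD68, was present (the blood list summed to 53.1 to 106 CPM) and was lower at 1000 µM against the mean of 0.01 to 10 µM (log2 difference -0.37, adjusted p = 0.0257); its part in the results was not tested. The fibroblast list nevertheless rose through PDGFRB, from a summed 3.98 to 5.62 CPM below 1000 µM to 8.17 to 8.79 CPM at 1000 µM. Counts from genes of the mitochondrial genome made up 4.95% to 14.2% of a library. In bulk RNA, fewer cells and less RNA per cell cannot be told apart.

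At 1000 µM against 0 µM, 8 of the 10 genes passed the test (edgeR's quasi-likelihood test, Benjamini-Hochberg adjusted p under 0.05), where 41.2% of all tested genes did. HIF1A, EPAS1, SLC2A1, NDRG1 and VEGFA rose, and ANKRD37, CA9 and ADM fell, so the genes did not move as a single block. Among all tested genes 20.6% were higher and 20.6% were lower. The 3 libraries at 1000 µM did not overlap the 3 at 0 µM for 7 of the 10 genes, against 53.2% of all tested genes. At 0.01, 0.1, 1, 10 and 100 µM the libraries were clear of the controls for 4, 2, 3, 5 and 5 of the 10 genes, against 32.0%, 22.5%, 23.6%, 45.8% and 43.0% of all tested genes. The median log2 difference of the 10 genes was 0.24 and that of all tested genes was -0.03. At 100 µM, 4 of the 10 genes passed, all higher (6.02% of tested genes passed in either direction, 2.74% as higher and 3.27% as lower). At 10 µM, 4 passed, 2 in each direction (22.0%, with 11.3% higher and 10.7% lower). At 0.01, 0.1 and 1 µM edgeR called 0 of the 10 genes (4.95%, 0% and 0% of tested genes), with 4, 0 and 4 of them at an unadjusted p under 0.05 (26.1%, 15.2% and 22.8% of tested genes). DESeq2 called 1, 0 and 1 of the 10 at these doses, against 16.8%, 3.55% and 11.4% of the genes it gave an adjusted p.

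**Figure D1:**
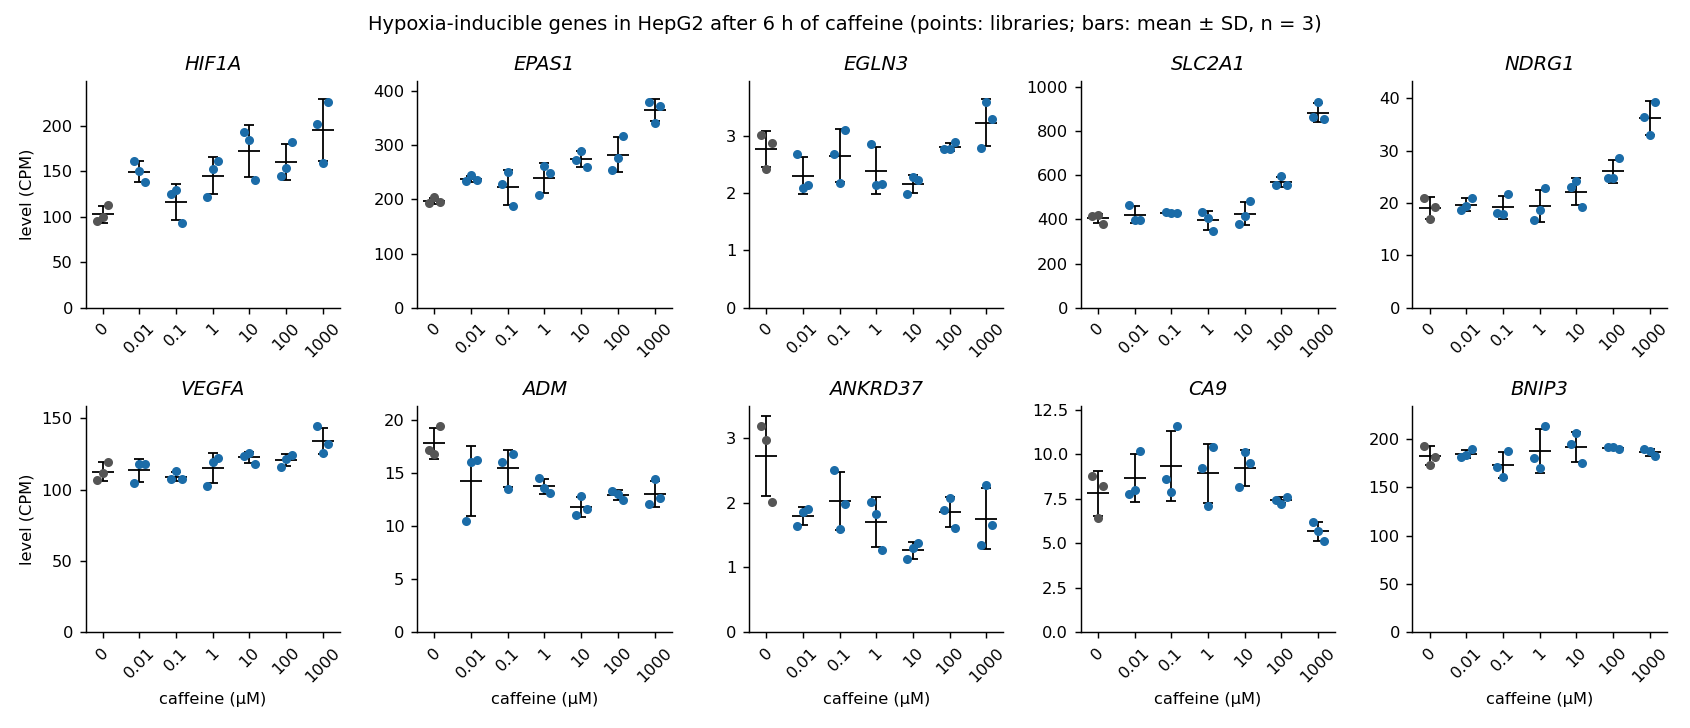
Levels of the 10 genes (y axis, CPM after TMM scaling, from 0) by caffeine dose (x axis, µM, ordered by step and not to scale), with a point for each library and bars for the mean ± SD (n = 3); control libraries are grey. SLC2A1 and NDRG1 rise at 100 and 1000 µM, CA9 is lowest at 1000 µM, ADM and ANKRD37 have their highest mean at 0 µM, and BNIP3 means stay between 173 and 192 CPM.

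HIF1A and EPAS1, the genes of the oxygen-regulated HIF subunits, both rose at 10, 100 and 1000 µM. HIF1A stood at 95.4, 99.6 and 113 CPM in the control libraries and at 202, 159 and 226 CPM at 1000 µM. The libraries at 0.01 µM had 161, 150 and 138 CPM, those at 0.1 µM 125, 129 and 93.6, and those at 1 µM 122, 152 and 161. At 10 µM they had 193, 184 and 140 CPM and at 100 µM 145, 154 and 182. Every treated library outside 0.1 µM was thus above all 3 controls, while neighbouring doses in the order of means overlapped throughout. The log2 difference from 0 µM was 0.75 (SE 0.16, adjusted p = 0.00499) at 10 µM, 0.65 (SE 0.16, adjusted p = 0.0291) at 100 µM and 0.93 (SE 0.16, adjusted p = 1.86e-04) at 1000 µM. The 100 µM call of HIF1A was lost without 0 µM replicate 1 (adjusted p = 0.126) or 2 (0.139), without 100 µM replicate 2 (0.0822) or 3 (0.161), under a correction for GC content and exon length chosen after seeing the data (0.0844) and with the replicate number as a block (0.0509). Of the HIF1A exon bases, 265 overlap other annotated genes, HIF1A-AS1 on the opposite strand among them.

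EPAS1 was tight in the controls, at 193, 204 and 195 CPM, and reached 381, 342 and 374 CPM at 1000 µM. Between them the libraries held 234, 244 and 236 CPM at 0.01 µM, 229, 251 and 187 at 0.1 µM, and 208, 262 and 250 at 1 µM. At 10 µM EPAS1 had 274, 290 and 260 CPM, and at 100 µM 254, 277 and 317. The 1000 µM libraries stood above all other 18 libraries, and the doses below them overlapped their neighbours. Against 0 µM the log2 difference was 0.48 (SE 0.11, adjusted p = 0.00714) at 10 µM, 0.52 (SE 0.11, adjusted p = 0.0192) at 100 µM and 0.89 (SE 0.11, adjusted p = 8.78e-06) at 1000 µM, a fold of 1.85. EPAS1 was also higher at 1000 than at 100 µM (log2 difference 0.37, SE 0.11, adjusted p = 0.0280), where 3 of the 10 genes passed, all higher, and 14.7% of tested genes did, 8.15% higher and 6.55% lower. That call was lost when 100 µM replicate 1 (adjusted p = 0.114), 100 µM replicate 2 (0.0792), 1000 µM replicate 1 (0.0506) or 1000 µM replicate 3 (0.0980) was left out. Of 8 alternatives apart from left-out libraries, 7 kept it. The EPAS1 call at 100 against 0 µM was lost without 0 µM replicate 1 (adjusted p = 0.0862) or 2 (0.103), or 100 µM replicate 2 (0.0656) or 3 (0.124). Per kilobase of annotated exon, EPAS1 was at 27.0 ± 0.762 CPM per kb at 0 µM and 50.0 ± 2.85 at 1000 µM, and HIF1A at 19.9 ± 1.74 and 38.0 ± 6.62 (SD, n = 3), so EPAS1 had the higher level of the pair on this scale.

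Part of the HIF1A and EPAS1 difference from the control was already present in the mean of the 4 lowest doses, which includes 10 µM. Neither gene passed at 0.01, 0.1 or 1 µM by itself in edgeR. The adjusted p was 0.0514, 0.613 and 0.0939 for HIF1A and 0.124, 0.469 and 0.140 for EPAS1. Against 0 µM, the mean of the 4 lowest doses (0.01 to 10 µM) was higher by a log2 difference of 0.49 (SE 0.13, adjusted p = 0.0155) for HIF1A and 0.30 (SE 0.09, adjusted p = 0.0257) for EPAS1. In this comparison 4 of the 10 genes passed, 2 higher and 2 lower, and 18.2% of tested genes did, with 9.31% higher and 8.93% lower. The calls depended on the control libraries kept. Without 0 µM replicate 1, or without 0 µM replicate 2, 0 of the 10 genes passed, and without 0 µM replicate 3, 2 did. The shares of all tested genes passing in these fits are not given here, so the counts do not set the 10 genes apart. Exon length and GC content were at hand for 15685 of the tested genes. Among these, genes that passed as higher there had a median exon length of 8659 bases and a GC content of 44.78%. Those that passed as lower had 2779 bases and 54.52%, and all 15685 had 4386 bases and 49.01%. HIF1A has 5151 exon bases and 36.38% GC, and EPAS1 has 7302 exon bases and 52.59% GC. With the correction for GC and length, HIF1A kept its call (0.46, adjusted p = 0.0450), as did EPAS1 (0.22, adjusted p = 0.0450).

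HIF1A also moved with the mitochondrial share of a library. In 6 of the 7 groups the library with the highest mitochondrial share had the highest HIF1A level, and in 6 of the 7 the library with the lowest share had the lowest level. At 1 µM, for example, the shares were 4.95%, 7.80% and 14.2% where HIF1A was at 122, 152 and 161 CPM. EPAS1 had this match at 3 groups for the highest and 5 for the lowest library, VEGFA at 3 and 6, and NDRG1 at 3 and 4. CA9 had it at 2 and 0, SLC2A1 and EGLN3 at 2 and 1, BNIP3 at 1 and 1, and ADM and ANKRD37 at 0 and 0. The match was not counted over all tested genes. With the share as a term of the model, again chosen after seeing the data, HIF1A remained higher at 1000 µM against 0 µM (log2 difference 0.83, adjusted p = 5.27e-05).

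When 1000 µM was set against the mean of the 4 lowest doses, which leaves out the control, 7 of the 10 genes passed, 6 higher and 1 lower, where 30.7% of tested genes passed, 16.3% higher and 14.4% lower. EPAS1 was higher by a log2 difference of 0.59 (SE 0.08, adjusted p = 2.97e-05). HIF1A was higher by 0.44 (SE 0.12, adjusted p = 0.00988). Here the 2 genes differed in how they held: HIF1A lost its call without 1000 µM replicate 3 (0.32, adjusted p = 0.127) and with the GC and length correction (0.21, adjusted p = 0.284), while EPAS1 had 0.58 (adjusted p = 2.97e-06) with that correction. Whether the 2 genes differed from each other was not tested. This comparison and that of the lowest doses with 0 µM share the libraries of the 4 lowest doses, and each shares libraries with 1000 against 0 µM.

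**Figure D2:**
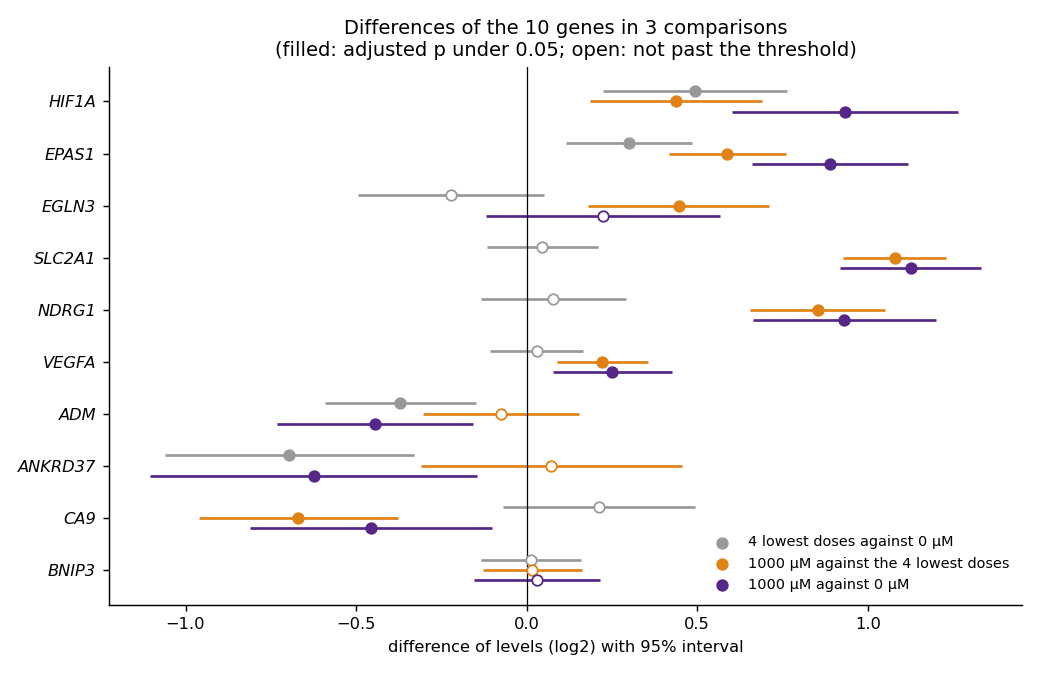
Log2 differences (x axis) of the 10 genes (y axis) with 95% intervals of the edgeR fit for the mean of the 4 lowest doses against 0 µM (grey), 1000 µM against that mean (orange) and 1000 µM against 0 µM (purple); filled points passed the adjusted threshold. HIF1A and EPAS1 pass in all 3, SLC2A1, NDRG1, VEGFA and CA9 only in the comparisons with 1000 µM, and ADM and ANKRD37 only in those with 0 µM.

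SLC2A1 encodes GLUT1, the glucose transporter of the plasma membrane, and was the member with the largest difference at 1000 µM. The controls held 415, 420 and 381 CPM, the 100 µM libraries 556, 595 and 557, and the 1000 µM libraries 863, 934 and 853. In the other 12 libraries, at 0.01 to 10 µM, SLC2A1 lay between 349 and 482 CPM. The 100 µM libraries stood above every library of a lower dose, and the 1000 µM libraries stood above those at 100 µM. The log2 difference from 0 µM was 0.49 (SE 0.10, adjusted p = 0.0159) at 100 µM and 1.13 (SE 0.10, adjusted p = 2.68e-07) at 1000 µM, a fold of 2.18. Against 100 µM, 1000 µM was higher by 0.63 (SE 0.10, adjusted p = 2.85e-04). The mean of the 4 lowest doses did not pass against 0 µM (0.05, 95% interval -0.12 to 0.21), and 1000 µM was higher than that mean by 1.08 (SE 0.07, adjusted p = 3.77e-09).

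The SLC2A1 calls at 1000 µM against 0 µM and against the 4 lowest doses held in every alternative run, as did those of EPAS1 and NDRG1. SLC2A1 had log2 differences of 1.21 and 1.12 under the GC and length correction. The 100 µM call did not: leaving out 0 µM replicate 1 (adjusted p = 0.0643), 0 µM replicate 2 (0.0886), 100 µM replicate 2 (0.0708) or 100 µM replicate 3 (0.0721) ended it, although the log2 difference stayed between 0.46 and 0.52 in these 4 fits. In those fits 0 of the 10 genes passed at 100 µM, and the shares of all tested genes passing in them are not given here. Of the SLC2A1 exon bases, 240 overlap other annotated genes, SLC2A1-AS1 on the opposite strand among them.

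NDRG1, a stress-responsive gene that is a common marker of low oxygen, also had its highest means at 1000 and 100 µM. Control libraries held 21.0, 16.9 and 19.1 CPM, 100 µM libraries 24.8, 24.8 and 28.5, and 1000 µM libraries 36.4, 33.0 and 39.3. From 0.01 to 10 µM NDRG1 ranged from 16.7 to 24.2 CPM, overlapping the controls. The libraries at 100 µM were above all lower doses and those at 1000 µM above all other libraries. NDRG1 was higher than at 0 µM by a log2 difference of 0.45 (SE 0.13, adjusted p = 0.0443) at 100 µM and 0.93 (SE 0.13, adjusted p = 2.68e-05) at 1000 µM. At 1000 against 100 µM it was higher by 0.48 (SE 0.13, adjusted p = 0.0161), a call lost without 100 µM replicate 1 (adjusted p = 0.0625), 100 µM replicate 2 (0.0632) or 1000 µM replicate 3 (0.0865). Leaving out any of the 6 libraries compared ended the call at 100 µM against 0 µM, with adjusted p between 0.0644 and 0.210, and the replicate block gave 0.0563. Against the 4 lowest doses 1000 µM was higher by 0.85 (SE 0.09, adjusted p = 2.31e-06), and this difference was 0.83 with the GC and length correction.

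VEGFA, the secreted growth factor for blood vessels, rose less. It had 107, 112 and 120 CPM in the controls and 145, 126 and 132 CPM at 1000 µM, with 103 to 126 CPM in all libraries between. The 1000 µM libraries were the highest 3 of the 21, by a narrow margin over 10 µM. The log2 difference at 1000 µM was 0.25 (SE 0.08, adjusted p = 0.0208) against 0 µM and 0.22 (SE 0.06, adjusted p = 0.0135) against the 4 lowest doses. Against 0 µM the call was lost without 0 µM replicate 1 (adjusted p = 0.0914), 0 µM replicate 2 (0.0580) or 1000 µM replicate 1 (0.0527), and under the GC and length correction the difference was 0.044 (adjusted p = 0.593). Against the 4 lowest doses that correction gave 0.23 (adjusted p = 9.50e-04), and leaving out 1000 µM replicate 1 gave 0.18 (adjusted p = 0.0665). VEGFA did not pass at 100 µM (0.10, 95% interval -0.08 to 0.27).

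ADM and ANKRD37 were lower than at 0 µM at 10 and 1000 µM and in the mean of the 4 lowest doses, which includes 10 µM. Neither passed at 0.01, 0.1 or 1 µM by itself, or at 1000 µM against the 4 lowest doses. ADM, the precursor of the vasodilator peptide adrenomedullin, had 17.1, 16.8 and 19.4 CPM in the controls and 12.1, 14.4 and 12.7 CPM at 1000 µM. From 0.01 to 100 µM its libraries ranged from 10.5 to 16.8 CPM. All 18 treated libraries were below the controls, the closest at 0.1 µM by less than the digits printed, and the treated groups overlapped each other. ADM fell by 0.59 on the log2 scale at 10 µM (SE 0.14, adjusted p = 0.00800) and by 0.45 at 1000 µM (SE 0.14, adjusted p = 0.0146). The mean of the 4 lowest doses was lower than 0 µM by a log2 difference of -0.37 (SE 0.11, adjusted p = 0.0236). That call was lost without 0 µM replicate 1 (adjusted p = 0.102), 2 (0.0699) or 3 (0.118). Against that mean, 1000 µM gave -0.08 (95% interval -0.30 to 0.15, adjusted p = 0.639). At 100 µM ADM gave -0.46 (SE 0.14, adjusted p = 0.0530).

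ANKRD37, a small ankyrin repeat protein and HIF-1 target, was among the scarcest of the 10, with 38 to 95 counts per library. Its level was 3.18, 2.96 and 2.01 CPM in the controls, 1.12, 1.30 and 1.37 CPM at 10 µM, and 1.35, 2.27 and 1.65 CPM at 1000 µM. The 10 µM libraries were below all controls, whereas the 1000 µM libraries overlapped the lowest control. The log2 difference from 0 µM was -1.10 (SE 0.23, adjusted p = 0.00528) at 10 µM, -0.62 (SE 0.23, adjusted p = 0.0359) at 1000 µM and -0.70 (SE 0.17, adjusted p = 0.0131) for the mean of the 4 lowest doses. Against the 4 lowest doses 1000 µM gave 0.07 (95% interval -0.31 to 0.45). The call for the 4 lowest doses was lost without 0 µM replicate 1 (adjusted p = 0.132) or 2 (0.0838). Leaving out 0 µM replicate 1 or 2, or 1000 µM replicate 1 or 3, ended the call at 1000 µM, with adjusted p between 0.109 and 0.168, as did testing with no filter on low counts (0.112) or on the 2 groups alone (0.0890).

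The GC and length correction ended the ADM calls at 1000 µM and for the 4 lowest doses against 0 µM and left those of ANKRD37, though the difference between the 2 genes was not tested. ADM is short (2718 exon bases) and GC-rich (58.50%), and with the GC and length correction its differences became -0.10 (adjusted p = 0.530) at 1000 µM and -0.20 (adjusted p = 0.157) for the 4 lowest doses. At 10 µM the ADM call held with the correction (-0.41, adjusted p = 0.0225) and in all other alternatives. Without 0 µM replicate 3, 1000 µM replicate 1 or 1000 µM replicate 3 the ADM call at 1000 µM was lost too (adjusted p = 0.0733, 0.0686 and 0.0539). ANKRD37 (2580 exon bases, 42.11% GC) gave -0.58 (adjusted p = 0.0344) and -0.58 (adjusted p = 0.0221) with the same correction. Exons of ANKRD37 overlap UFSP2 on the opposite strand, and the strand setting of the counting is not known, so reads of the pair may be mixed.

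CA9 followed neither pattern. It encodes carbonic anhydrase IX, a surface enzyme that controls pH and is among the most sensitive HIF-1 targets, and its level was low. The controls had 8.80, 6.41 and 8.20 CPM and the 1000 µM libraries 6.19, 5.71 and 5.14, with 7.12 to 11.6 CPM from 0.01 to 100 µM. The 1000 µM libraries were the lowest 3 of all 21. Against the 4 lowest doses CA9 was lower at 1000 µM by a log2 difference of -0.67 (SE 0.14, adjusted p = 0.00128), and by -0.43 (adjusted p = 0.00871) with the GC and length correction. Against 0 µM the difference was -0.46 (SE 0.17, adjusted p = 0.0381). That call was lost without 0 µM replicate 1 or 3 or any of the 1000 µM libraries (adjusted p between 0.0517 and 0.152), and with the GC and length correction the value was 0.032 (adjusted p = 0.884). CA9 has 1670 exon bases and 60.07% GC. Of its exon bases, 643 overlap ARHGEF39 on the opposite strand.

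EGLN3 and BNIP3 did not pass in any comparison with 0 µM. EGLN3, the HIF prolyl hydroxylase that is itself a HIF target, had 3.01, 2.41 and 2.87 CPM in the controls and 2.79, 3.60 and 3.30 CPM at 1000 µM, and the groups overlapped. Against 0 µM the difference at 1000 µM was 0.22 (95% interval -0.12 to 0.57, adjusted p = 0.289). Against the 4 lowest doses, where its libraries lay between 1.98 and 3.09 CPM, EGLN3 was higher by 0.45 (SE 0.13, adjusted p = 0.0121). This rested on 60 to 146 counts per library and was lost without 1000 µM replicate 2 (adjusted p = 0.0896) or replicate 3 (adjusted p = 0.0598).

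BNIP3, a mitophagy receptor and a standard HIF target, had similar levels at all doses. Its libraries had 193, 173 and 182 CPM at 0 µM and 190, 188 and 182 CPM at 1000 µM, with 161 to 213 CPM in between. No group stood apart from all others. The 95% interval of its log2 difference was -0.16 to 0.21 at 1000 µM against 0 µM and -0.13 to 0.16 against the 4 lowest doses, and the test among the 7 groups gave an adjusted p of 0.757. A change of the size seen for SLC2A1 or NDRG1 at 1000 µM lies outside these intervals.

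**Figure D3:**
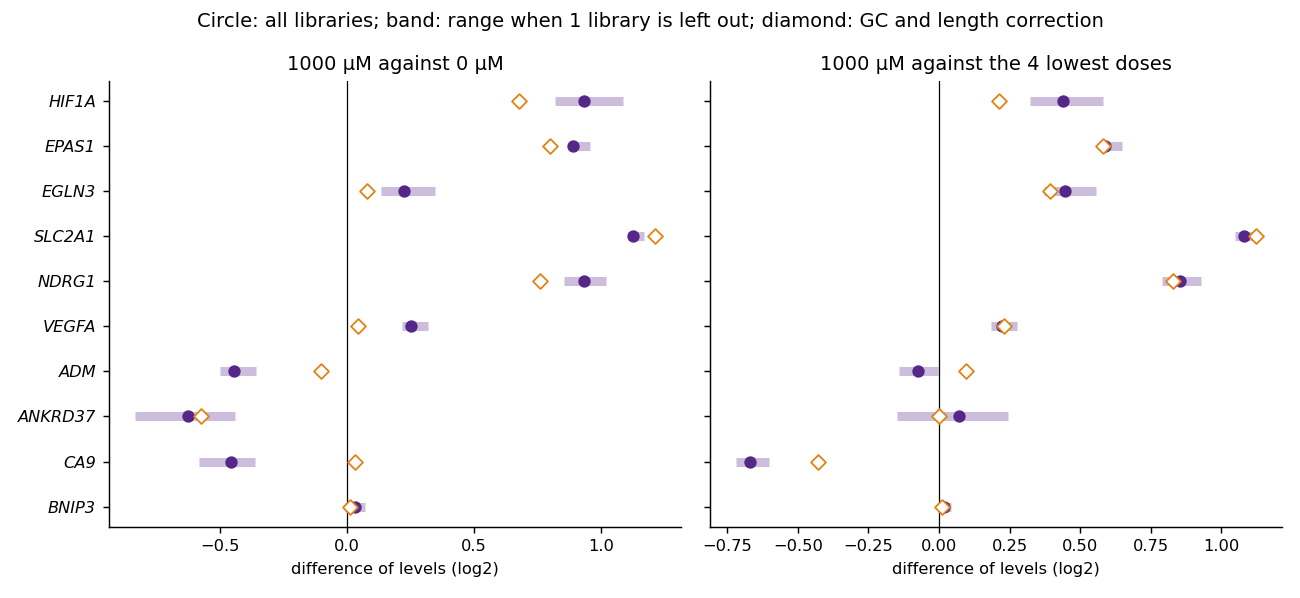
Log2 differences (x axis) at 1000 µM against 0 µM (left) and against the mean of the 4 lowest doses (right) for the 10 genes (y axis): circles are all libraries, bands the range when 1 library is left out, diamonds the value with the GC and length correction. Under that correction SLC2A1, NDRG1 and EPAS1 stay at 0.76 or above on the left, while VEGFA, ADM and CA9 come to 0.044, -0.10 and 0.032.

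Over the whole series the test among the 7 groups passed for 7 of the 10 genes (28.1% of tested genes), all but VEGFA, BNIP3 and EGLN3. Without the 1000 µM libraries 0 of the 10 passed, with adjusted p between 0.0523 (SLC2A1) and 0.764 (BNIP3), and without the 0 µM libraries 4 did (EPAS1, CA9, NDRG1 and SLC2A1). Leaving out 1 library left between 4 and 9, and the calls of CA9, ADM and ANKRD37 were the ones lost that way. The shares of all tested genes passing in these reduced fits are not given here, so their counts do not set the 10 genes apart. A slope of the log2 level on the rank of the dose passed for 6 genes, 5 rising and 1 falling (29.0% of tested genes, 14.5% in each direction). It was 0.16 per dose step for SLC2A1 (SE 0.03, adjusted p = 3.56e-04), 0.14 for NDRG1 (SE 0.02, adjusted p = 2.75e-04), 0.12 for EPAS1 (SE 0.02, adjusted p = 8.12e-05) and 0.12 for HIF1A (SE 0.02, adjusted p = 0.00109). VEGFA rose by 0.04 per step (SE 0.01, adjusted p = 0.0140) and ADM fell by 0.07 per step (SE 0.02, adjusted p = 0.00923). With the GC and length correction VEGFA (0.01, adjusted p = 0.471) and ADM (-0.04, adjusted p = 0.127) no longer passed. Without the 1000 µM libraries the slopes of SLC2A1 (0.07, adjusted p = 0.0597) and VEGFA (0.03, adjusted p = 0.237) no longer passed.

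The partners and sensors of HIF moved in different directions. ARNT, the shared β subunit, rose from 24.2 ± 0.811 to 36.3 ± 4.36 CPM between 0 and 1000 µM (SD, n = 3, log2 difference 0.58, adjusted p = 0.00109). The mean of the 4 lowest doses was already above 0 µM for ARNT (0.31, adjusted p = 0.0394), and 1000 µM was higher than that mean by 0.28 (adjusted p = 0.0331). EGLN1, the main oxygen-sensing hydroxylase, rose from 45.7 ± 3.66 to 60.0 ± 6.26 CPM between 0 and 1000 µM (0.39, adjusted p = 0.00613). Against the 4 lowest doses EGLN1 was higher by 0.54 (adjusted p = 5.51e-05). With the GC and length correction EGLN1 gave 0.16 (adjusted p = 0.140) against 0 µM and 0.41 (adjusted p = 5.99e-05) against the 4 lowest doses. The sensors EGLN2 (-0.17), HIF1AN (0.20) and the ubiquitin ligase gene VHL (0.03) did not pass at 1000 µM against 0 µM. EGLN2 was lower than at 0 µM in the mean of the 4 lowest doses (-0.36, adjusted p = 0.0378). HIF1AN passed at 1000 µM in 2 of 8 alternatives apart from left-out libraries, with differences between -0.13 and 0.25 over the 8. The histone acetyltransferases EP300 (0.98) and CREBBP (0.92), which HIF recruits to its targets, rose against 0 µM. They gave 0.11 and 0.20 against the 4 lowest doses and did not pass. ELOB (-0.86), ELOC (-0.65) and RBX1 (-0.45), subunits of the VHL ligase, fell against 0 µM, though ELOB gave -0.28 (adjusted p = 0.0772) with the GC and length correction. ELOC lost its call without 0 µM replicate 1 (adjusted p = 0.115) or 2 (0.165), or 1000 µM replicate 1 (0.189) or 3 (0.127), and RBX1 without 0 µM replicate 1 (0.172), or 1000 µM replicate 1 (0.159) or 3 (0.0979). Of 8 alternatives apart from left-out libraries, 6 kept the ELOC call and 6 the RBX1 call. Against the 4 lowest doses ELOC (-0.11, adjusted p = 0.703) and RBX1 (-0.08, adjusted p = 0.652) did not pass, while ELOB was lower (-0.52, adjusted p = 0.0218). In all, of 12 tested genes on a list of 15 for oxygen sensing, 4 were higher and 3 lower at 1000 µM against 0 µM, with a median log2 difference of 0.11. Of all tested genes 20.6% were higher and 20.6% lower in this comparison, with a median of -0.03.

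HIF targets outside the 10 genes were counted on 4 lists at 1000 µM against 0 µM, to be read beside the 41.2% of all tested genes that passed, 20.6% in each direction; no list was tested against another. Of 21 tested genes (22 listed) for glucose uptake and glycolysis, 2 rose and 8 fell, with a median log2 difference of -0.25. PFKFB3, which makes the activator of phosphofructokinase, rose from 7.06 ± 0.586 to 19.1 ± 1.48 CPM (1.43, adjusted p = 3.48e-07), and the neuronal-type glucose transporter SLC2A3 rose by 0.46 (adjusted p = 0.00128). ALDOA (-0.59), PPP1R3C (-0.50) and GPI (-0.41), genes of aldolase, a glycogen-targeting subunit and phosphoglucose isomerase, fell. SLC2A1 and PFKFB3 thus rose in cells where most glycolysis genes that passed were lower. This list had 3 higher and 7 lower against the 4 lowest doses (16.3% and 14.4% of all tested genes).

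Secreted factors held the largest differences. Of 14 tested genes (17 listed) for angiogenesis, secreted factors and matrix, 8 rose and 2 fell (median 0.53). Against the 4 lowest doses 9 rose and 2 fell (16.3% and 14.4% of all tested genes). IGFBP1, an insulin-like growth factor binding protein of liver, rose from 43.4 ± 6.83 to 299.9 ± 5.79 CPM (2.79, adjusted p = 4.59e-09). EDN1, endothelin, rose by 1.20 (adjusted p = 9.90e-07). EPO, the red cell hormone known for its control by HIF-2α, fell from 9.94 ± 0.824 to 3.42 ± 0.602 CPM (-1.54, adjusted p = 1.40e-06), in the libraries where EPAS1 was highest. PGF, a relative of VEGFA, fell by 1.08 (adjusted p = 4.65e-05).

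Of 10 tested genes (12 listed) for mitophagy, stress and lipid storage, 3 rose and 2 fell (median 0.21). The risers were PLIN2, a lipid droplet coat (0.88, adjusted p = 2.86e-07), TFRC, the transferrin receptor (0.84, adjusted p = 0.00249), and BNIP3L, the paralog of BNIP3 (0.64, adjusted p = 7.08e-04). FAM162A (-0.87, adjusted p = 0.00191) and HILPDA (-0.55, adjusted p = 0.0145) fell against 0 µM. The HILPDA call was lost without 0 µM replicate 2 (adjusted p = 0.0600) or 1000 µM replicate 3 (0.0878), and with the GC and length correction (-0.31, adjusted p = 0.123). When 1000 µM was set against the 4 lowest doses, 7 genes of this list passed as higher and 0 as lower (16.3% and 14.4% of all tested genes). FAM162A gave -0.37 (adjusted p = 0.0854) there, and -0.49 (adjusted p = 0.00635) with the GC and length correction. Of 14 tested genes (15 listed) for feedback, chromatin and transcription, 6 rose and 1 fell (median 0.21), with the histone demethylases KDM3A (1.00, adjusted p = 9.29e-07) and KDM5B (0.67, adjusted p = 1.85e-05) and the lipoprotein receptor VLDLR (0.63, adjusted p = 1.52e-04) among the risers. All 8 alternatives apart from left-out libraries kept these calls, but the lowest difference among them was 0.60 for KDM3A, 0.20 for KDM5B and 0.31 for VLDLR. JMJD6 (-0.38, adjusted p = 0.0133) was the gene that fell, a call lost without 1000 µM replicate 3 (adjusted p = 0.0811). Against the 4 lowest doses JMJD6 gave -0.16 (adjusted p = 0.211) and did not pass.

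**Figure D4:**
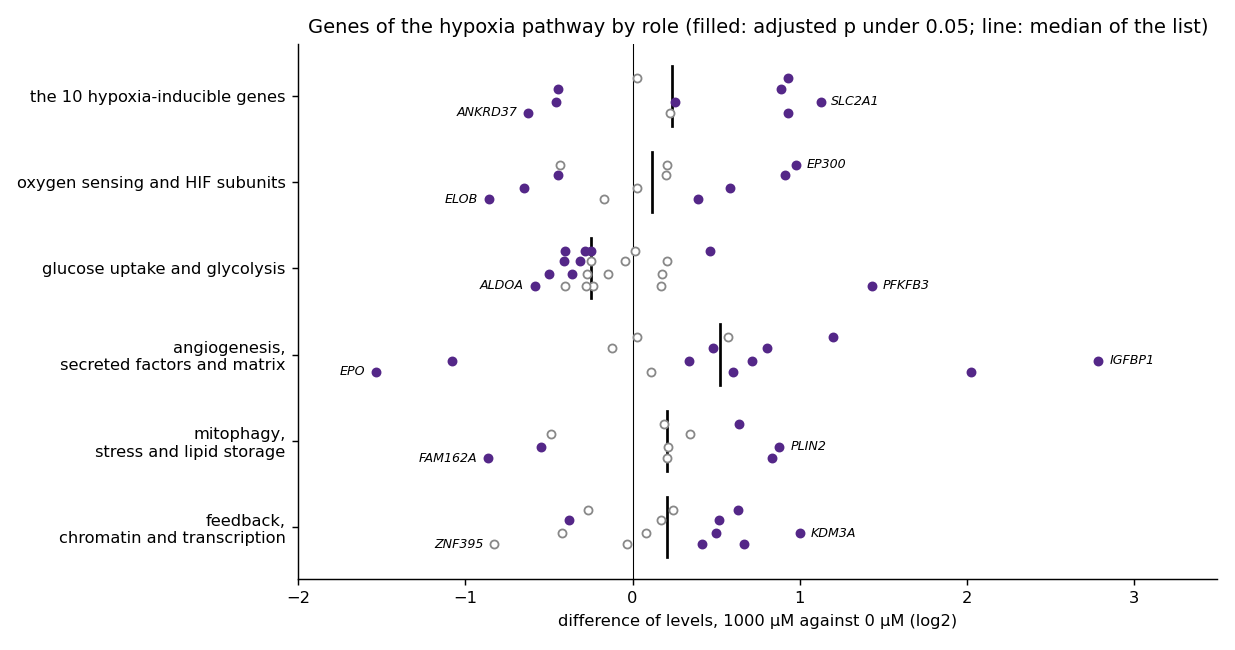
Log2 differences at 1000 µM against 0 µM (x axis) for each tested gene of the 10 and of the 5 lists (rows), filled where the adjusted p was under 0.05, with a line at the median of the row and the lowest and highest gene named. The glycolysis row has its median at -0.25 with PFKFB3 at 1.43, and the secreted row spans -1.54 (EPO) to 2.79 (IGFBP1).

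Among the 10 genes, levels over the 21 libraries moved most alike for HIF1A and EPAS1 (Pearson r of log2 CPM 0.89) and least alike for HIF1A and ADM (r = -0.74) and CA9 and SLC2A1 (r = -0.74). These are descriptions over libraries that share doses and scaling. Of 12444 genes with a symbol and a mean of at least 1 CPM, the one closest to SLC2A1 was KDM3A (r = 0.97 over 21 libraries), itself on the list of HIF targets, followed by SLC16A6 (r = 0.96), a monocarboxylate transporter family gene that was higher by 2.08 at 1000 µM against 0 µM. EPAS1 was closest to BCOR (r = 0.98) and HIF1A to MFSD6 (r = 0.98). NDRG1 was closest to KCMF1 and VEGFA to DLX2 (r = 0.95 each), and the nearest genes to CA9 and BNIP3 reached 0.83 and 0.84.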

How the data were processed

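The authors deposited integer read counts for each gene in a table, not normalized, per the file headers and values. The submitters' processing notes name HISAT2, DESeq2 and GRCh38; the counting program, annotation and strand setting are not given in the sources used here. The 21 columns matching the samples' labels were used, and 21 others were not. A design text names a different compound for the untreated group; the sample labels were followed.

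RNA was selected with poly(dT) beads, per the labels' protocols. Counts were tested with edgeR 4.0.16 (R 4.3.3, TMM, filter at a minimum count of 10), in 1 fit over 7 groups with 14 residual degrees of freedom, adjusted over 17468 genes (threshold 0.05); 11 comparisons were made. Differences are log2, SE from the F statistic. A count of 0 would allow up to 0.0735 to 0.107 CPM (3 counts, counting error only). The code was tested on simulated data. Total counts per library had a median of 32497612. P-values measure the spread between these libraries.

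The 10 genes and the lists were chosen with earlier results of these data known, so list counts and medians are descriptions. Named genes were the 10, ARNT, EGLN1, EGLN2, VHL and HIF1AN, per list up to 3 risers and 3 fallers with the largest difference at 1000 against 0 µM and at least 1 CPM, and for likeness the nearest 2 genes. Exon lengths, GC and overlaps come from GENCODE v29, promoters from RefSeq. Alternatives were RLE scaling, DESeq2 1.42.0, other filters, a replicate block, fits on fewer groups, each library left out and, chosen after seeing the data, a GC and length correction and the mitochondrial share as a term.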

Additional observations from a re-analysis of the deposited data

How the results depend on the processing

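Counts are of the 10 genes passing. The shares of all tested genes passing in the same runs are not given in this section, so the counts do not set the 10 genes apart. At 0.01 µM against 0 µM (0), RLE scaling, DESeq2, no filter and a filter of 10 counts in every library each gave 1, and leaving out 1 library gave 0 to 1. At 1 µM (0), DESeq2 gave 1 and leaving out 1 library 0 to 2. At 100 µM (4), the replicate block and the GC and length correction each gave 2, and leaving out 1 library 0 to 3. At 1000 µM against 0 µM (8), no filter and the GC and length correction each gave 5, and leaving out 1 library 4 (without 1000 µM replicate 1) to 7. At 1000 against 100 µM (3) leaving out 1 library gave 1 to 3, and for the 4 lowest doses against 0 µM (4) 0 to 4. For the 7 groups (7), leaving out all 1000 µM libraries gave 0, all 0 µM libraries 4, and 1 library 4 to 9. Counts at 0.1 and 10 µM, at 1000 µM against the 4 lowest doses and for the slope kept within 1.5 times in every alternative run. The GC and length correction turned VEGFA to -0.19 (adjusted p = 0.0339) at 10 µM and -0.19 (adjusted p = 0.0159) for the 4 lowest doses against 0 µM, and CA9 to 0.032 (adjusted p = 0.884) at 1000 µM; the cause was not tested.

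Same-numbered libraries did not deviate together (63 pairs, median r 0.02, 11 above 0.1), and 5 of 21 libraries matched their own number best. The replicate block cost HIF1A (adjusted p = 0.0509) and NDRG1 (0.0563) their calls at 100 µM, and ADM (0.0560) and ANKRD37 (0.0551) theirs among the 7 groups. ANKRD37 and EGLN3, at most 146 counts in each library, have the least depth of the 10.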
